A study of Mus musculus with 6 samples.

Results

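Genes of the cytochrome P450 (CYP) families 1, 3 and 4 were examined in hepatocytes of mice given Sox4 by an adeno-associated virus (AAV). Members were the symbols of the count table formed by Cyp1, Cyp3 or Cyp4, a subfamily letter, a number and at most a closing a or b. The table held 53599 symbols and 32 of them were members, 3 in family 1, 9 in family 3 and 20 in family 4. On GRCm38 the Cyp1a pair lies on chromosome 9, the Cyp3a genes on chromosome 5, the Cyp4a genes with Cyp4b1 and Cyp4x1 on chromosome 4, Cyp1b1 and most Cyp4f genes on chromosome 17, and Cyp4f18 and Cyp4v3 on chromosome 8. Hepatocytes were released with liberase, enriched on Percoll and sequenced as total RNA, with 3 libraries per group, on day 4 after injection of AAV8. The Sox4 group (genotype Sox4 in the labels) received HA-Sox4 joined by P2A to Cre, and the empty vector (EV) group (genotype WT) received Cre without Sox4. Both vectors were driven in hepatocytes by the TBG promoter, so Cre was common to both groups. According to the methods, the animals were Rosa-LSL-Cas9-EGFP mice on a C57BL/6J background, only weeks old, in which Cre switches on Cas9 and EGFP. The comparison asked how these P450 genes differ between Sox4 and EV hepatocytes.

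P450 enzymes are haem proteins of the endoplasmic reticulum that insert oxygen into their substrates, with electrons from P450 oxidoreductase (Por) and, for some reactions, cytochrome b5. Family 1 oxidizes planar aromatic compounds and is induced through the aryl hydrocarbon receptor (AHR). Family 3 carries out much of hepatic drug and steroid oxidation and is induced through the nuclear receptors PXR and CAR, and family 4 hydroxylates fatty acids and related lipids. The Cyp4a genes are classical targets of PPARA, the fasting and fibrate receptor of hepatocytes.

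Several members are close copies of each other, which bears on how reads can be assigned to them. Over the coding sequence (GENCODE M21, GRCm38), Cyp4a12a and Cyp4a12b were 98.5% identical, with 23 differing bases in 1524. Cyp4a31 was 96.6% identical to Cyp4a10 and 96.0% to Cyp4a32, and Cyp3a25 was 97.5% identical to Cyp3a59. The windows below are the 60 coding bases with the most differences within each pair, with the bases that differ in capitals. They hold 4 and 6 differences and show the most divergent stretch, so the copies are closer over the rest of the coding sequence. The first pair covers coding bases 624 to 683 and the second covers coding bases 106 to 165.
Cyp4a12a: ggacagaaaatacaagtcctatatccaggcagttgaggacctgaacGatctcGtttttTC
Cyp4a12b: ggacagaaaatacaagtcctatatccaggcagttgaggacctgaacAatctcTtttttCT
Cyp4a31: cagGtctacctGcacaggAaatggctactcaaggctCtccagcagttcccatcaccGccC
Cyp4a10: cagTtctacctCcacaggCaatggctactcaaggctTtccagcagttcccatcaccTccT

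The promoters of 4 Cyp3a genes are shown because these genes, all in 1 subfamily, included members that were lower and a member that was higher in Sox4. Each is the 250 bases before the annotated start, from RefSeq on GRCm38.p6, written 5′ to 3′ on the strand of the gene. Capitals mark CAAAG or its reverse complement CTTTG, letters that are part of the motif bound by HNF4A, a hepatocyte transcription factor. The windows lay at chr5:145879855-145880104, minus strand (Cyp3a11), chr5:137921620-137921869, minus strand (Cyp3a13), chr5:146009619-146009868, minus strand (Cyp3a25) and chr5:146079008-146079257, plus strand (Cyp3a59).
Cyp3a11: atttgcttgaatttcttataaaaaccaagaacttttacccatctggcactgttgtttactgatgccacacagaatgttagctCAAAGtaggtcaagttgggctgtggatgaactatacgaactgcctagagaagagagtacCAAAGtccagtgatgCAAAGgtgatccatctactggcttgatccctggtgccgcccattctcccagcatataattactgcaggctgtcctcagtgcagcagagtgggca
Cyp3a13: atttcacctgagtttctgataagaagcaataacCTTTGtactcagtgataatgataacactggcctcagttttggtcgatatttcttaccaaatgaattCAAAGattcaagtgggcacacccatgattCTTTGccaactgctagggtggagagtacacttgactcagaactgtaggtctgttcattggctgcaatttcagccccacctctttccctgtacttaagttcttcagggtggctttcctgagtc
Cyp3a25: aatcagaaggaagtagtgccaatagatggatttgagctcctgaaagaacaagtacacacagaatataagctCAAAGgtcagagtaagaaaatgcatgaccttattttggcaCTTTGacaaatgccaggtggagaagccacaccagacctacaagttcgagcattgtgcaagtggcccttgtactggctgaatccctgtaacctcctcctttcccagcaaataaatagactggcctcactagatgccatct
Cyp3a59: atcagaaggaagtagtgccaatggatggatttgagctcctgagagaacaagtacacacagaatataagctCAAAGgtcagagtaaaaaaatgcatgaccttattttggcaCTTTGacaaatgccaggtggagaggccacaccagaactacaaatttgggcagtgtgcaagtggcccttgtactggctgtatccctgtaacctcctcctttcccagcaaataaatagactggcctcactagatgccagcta

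Cyp3a11 and Cyp3a13 each held 3 such matches and Cyp3a25 and Cyp3a59 each held 2. Any link between the number of matches and the direction of change was not tested. The Cyp3a25 and Cyp3a59 windows were 94.8% identical, against 52.7% for Cyp3a11 with Cyp3a25 and 53.5% for Cyp3a11 with Cyp3a13. The RefSeq table held a promoter for 25 of the 32 members, and 21 of these 25 had a match to CAAAG on either strand, as had 48.6% of all 32851 promoter windows of this length. CTTTGT, the core letters bound by SOX proteins, was found in 7 of 25 members and in 16.5% of all windows. Its first 5 letters are the reverse complement of CAAAG, so the matches of both motifs overlap. AGGTCA, the letters recognized by many nuclear receptors, was found in 6 members (14.0% of all windows). The direct repeat of these letters with a single spacer base (DR1) is bound by PPARA with its partner RXRA. The search for DR1 was looser, with any base allowed at the spacer and in place of the thymine of each copy. In this looser form DR1 was found in none of these 25 promoters (0.338% of all windows). The promoters of Cyp4a10, Cyp4a12a, Cyp4a12b, Cyp4a14, Cyp4a31, Cyp4f17 and Cyp4x1 were not in the RefSeq table and were not searched for any motif. Among the tested Cyp4a genes, only Cyp4a32 was searched.

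The promoters of the Cyp1a pair are shown because 1 of these genes was high and the other low in hepatocytes. Capitals here mark GCGTG, the core letters bound by AHR, and TATAAA, the TATA box. The windows lay at chr9:57697363-57697612, plus strand (Cyp1a1) and chr9:57683656-57683905, minus strand (Cyp1a2).
Cyp1a1: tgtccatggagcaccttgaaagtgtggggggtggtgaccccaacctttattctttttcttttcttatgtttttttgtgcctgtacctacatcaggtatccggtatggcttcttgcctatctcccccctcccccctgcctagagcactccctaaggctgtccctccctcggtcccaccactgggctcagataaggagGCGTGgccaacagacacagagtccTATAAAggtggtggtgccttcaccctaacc
Cyp1a2: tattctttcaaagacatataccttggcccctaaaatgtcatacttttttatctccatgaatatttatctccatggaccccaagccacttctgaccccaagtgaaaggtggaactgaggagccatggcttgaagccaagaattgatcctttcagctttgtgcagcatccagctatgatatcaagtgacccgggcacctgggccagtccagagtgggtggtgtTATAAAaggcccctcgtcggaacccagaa

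Both windows held TATAAA, which was found in 8 of 25 member promoters and in 12.4% of all windows. The Cyp1a1 window held GCGTG and the Cyp1a2 window did not, and this motif, searched on either strand, was found in 6 member promoters and in 28.2% of all windows. The Cyp1a1 and Cyp1a2 windows were 43.4% identical. A match in these letters is a description and was not tested for binding.

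The libraries held 15090629 to 16964860 counts, and 12691 genes passed the expression filter. Levels below are counts scaled to a TMM-adjusted library of 1e06 (CPM), fold changes are Sox4 over EV on the log2 scale, and a gene was called where the edgeR quasi-likelihood test gave an adjusted p under 0.05. Over all tested genes the median change was 0.04 (log2), and 26.0% were called lower and 29.0% higher in Sox4. Sox4 itself had 2, 0 and 3 counts in the EV libraries and 21697, 15097 and 11816 in the Sox4 libraries. The summed level of 8 hepatocyte markers was 118681 to 141595 CPM across EV libraries and 84292 to 98064 CPM across Sox4 libraries, with 5 of 8 lower. That of 8 cholangiocyte markers was 27.5 to 43.7 CPM across EV libraries and 71.5 to 84.7 CPM across Sox4 libraries, with 2 of 4 tested genes higher and Krt7 and Krt19 at 0 counts in all EV libraries. Stellate cell markers ran from 8.86 to 45.5 CPM (EV) and from 82.3 to 139 CPM (Sox4), and Kupffer cell markers from 8.71 to 20.6 CPM and from 20.3 to 51.9 CPM, with 2 of 4 and 2 of 6 tested genes higher. Most of each stellate sum was Reln, at 7.09, 22.6 and 37.5 CPM in EV and 126, 117 and 50.8 CPM in Sox4. The next largest, Dcn, was at 0.848, 1.75 and 4.79 CPM in EV and 3.56, 12.4 and 17.0 CPM in Sox4, with overlap. Rgs5, the other stellate gene called higher, was at 0.231, 0.607 and 1.60 CPM in EV and 2.06, 4.39 and 7.35 CPM in Sox4. Endothelial markers ran from 15.8 to 23.1 CPM (EV) and from 12.5 to 29.4 CPM (Sox4), with 2 higher and 1 lower of 7. The part of these markers in the P450 results was not tested, and in bulk RNA fewer cells of a type and less RNA per cell cannot be told apart.

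Of the 32 members, 20 passed the expression filter and 12 did not. Among the 20 tested members, 8 were lower in Sox4 (40%, against 26.0% of all tested genes), 4 were higher (20%, against 29.0%) and 8 did not pass the threshold. In all, 60% of tested members were called, against 55.1% of all tested genes, so the share called was close to the background. In 12 of 20 members (60%) the 3 EV and the 3 Sox4 libraries did not overlap, against 63.0% of all tested genes. The count of higher members was 1 without EV replicate 2 and 2 without Sox4 replicate 1 or Sox4 replicate 2. The lower members were Cyp3a11, Cyp3a13, Cyp4a12a, Cyp4a12b, Cyp4f13, Cyp4f14, Cyp4f15 and Cyp4v3, and the higher ones were Cyp1a1, Cyp3a59, Cyp4a31 and Cyp4f16. Each of the 3 families therefore held a member that was higher, and families 3 and 4 held members of both directions. The median log2 fold change was 0.79 over the 2 tested members of family 1, -0.96 over the 4 of family 3 and -0.63 over the 14 of family 4, against 0.04 over all tested genes.

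**Figure D1:**
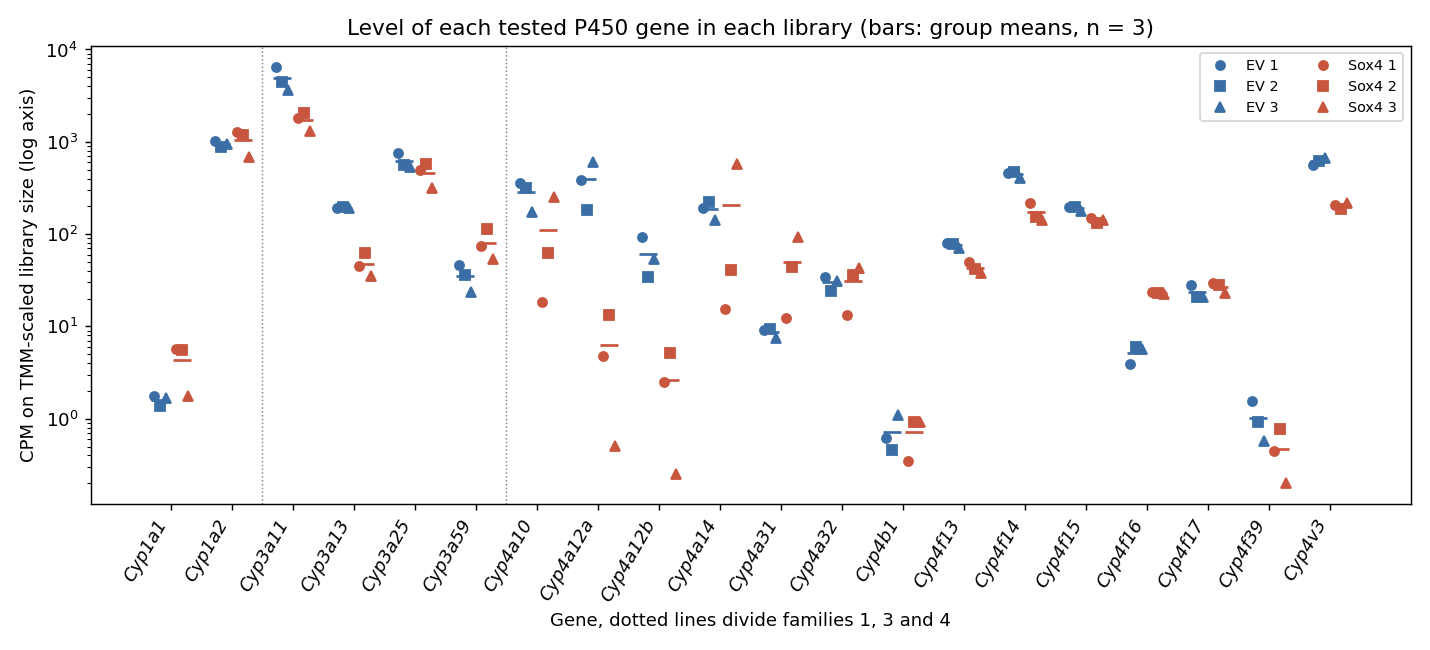
CPM of the 20 tested P450 genes (log axis) in each of the 3 EV (blue) and 3 Sox4 (red) libraries, with group means as bars. Cyp3a11 had the highest mean in both groups, and the Sox4 libraries of the Cyp4a genes lie further apart than those of Cyp4f13 to Cyp4f17 and Cyp4v3.

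**Figure D2:**
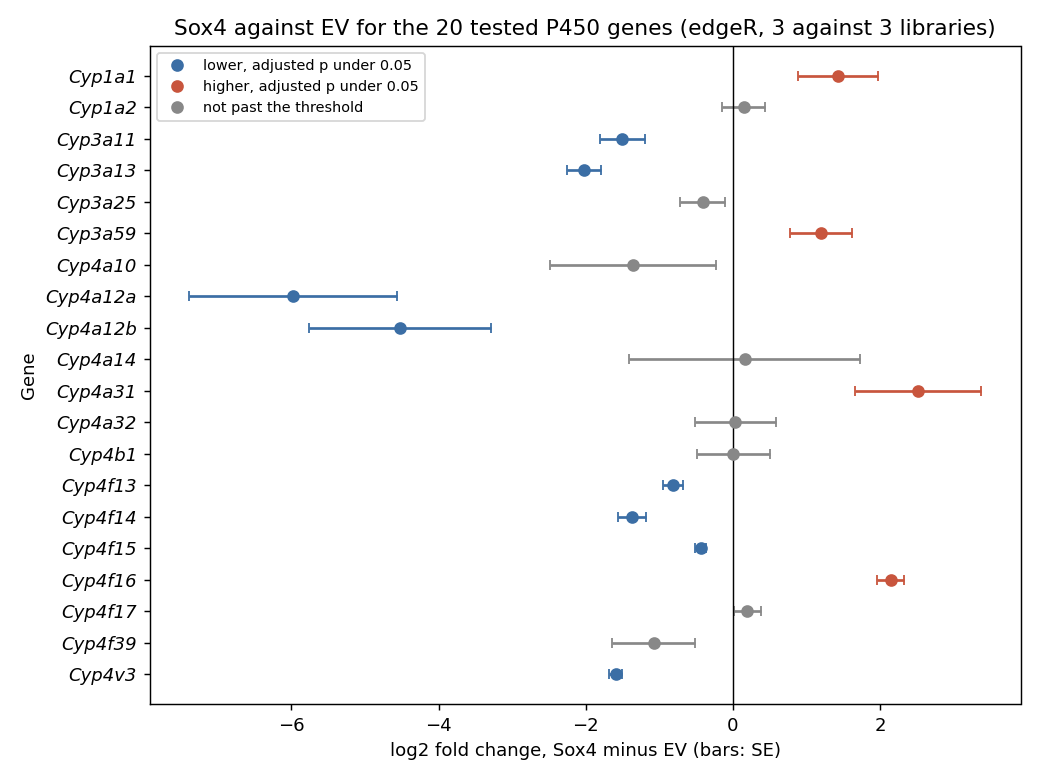
The edgeR log2 fold change of Sox4 over EV for each tested P450 gene, coloured by call. Bars are the SE of the difference in mean log2 CPM (3 libraries per group). Of the 20 genes, 8 were lower, 4 were higher and 8 did not pass the threshold, and the SE of Cyp4a14 (1.57) exceeded its change (0.16).

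Compared per kilobase of exon, Cyp3a11 was the most abundant member in EV hepatocytes at 956 ± 290.3 CPM per kb (SD, n = 3), followed by Cyp1a2 at 472 ± 35.4 and Cyp3a25 at 295 ± 57.2. These 3 ranges did not overlap with that of the next gene in the order. Cyp4f14 (184 ± 13.4), Cyp4a12a (162 ± 88.0), Cyp4v3 (162 ± 12.6), Cyp4a10 (134 ± 46.2), Cyp4f15 (83.6 ± 5.55), Cyp4a14 (71.7 ± 16.5) and Cyp3a13 (65.2 ± 0.826) followed, all in CPM per kb, and each overlapped the next of these. The other 10 tested members lay below, from Cyp4a12b at 25.2 ± 12.5 to Cyp4b1 at 0.319 ± 0.146 CPM per kb.

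In family 1, Cyp1a2, which oxidizes aromatic amines and caffeine and is a constitutive liver enzyme, showed no called difference, and the far less abundant Cyp1a1, the classical AHR-induced enzyme, was higher in Sox4. Cyp1a2 was at 1028, 888 and 936 CPM in EV replicates 1, 2 and 3 and at 1291, 1183 and 686 CPM in Sox4 replicates 1, 2 and 3 (log2 fold change 0.15 ± 0.29 (SE), adjusted p = 0.596). Sox4 replicates 1 and 2 lay above every EV library and Sox4 replicate 3 lay below them. Without Sox4 replicate 3 the difference was called higher (0.38, adjusted p = 0.0435), and without Sox4 replicate 1 it was -0.028 (adjusted p = 0.922).

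Cyp1a1 was at 1.77, 1.37 and 1.67 CPM in the EV libraries and at 5.66, 5.57 and 1.77 CPM in the Sox4 libraries, 2.7-fold higher by group means (log2 fold change 1.43 ± 0.55 (SE), adjusted p = 0.0201). The groups did not overlap, but Sox4 replicate 3 was level with the highest EV library, and the rise rested on Sox4 replicates 1 and 2. The call was lost without EV replicate 2 (adjusted p = 0.0695), Sox4 replicate 1 (0.0549) or Sox4 replicate 2 (0.0746) and with limma-voom (0.0957). Cyp1a1 made up 0.154 to 0.178% of the counts of the Cyp1a pair in EV and 0.258 to 0.468% in Sox4. Cyp1b1, the extrahepatic member of the family, had no count in any library. The summed level of the family was 952 ± 71.4 CPM (SD, n = 3) in EV and 1058 ± 325 CPM in Sox4, and the groups overlapped.

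Of the 7 genes of the AHR pathway list, 5 were tested. Among these, 2 were higher (29.0% of all tested genes) and 1 was lower (26.0%), or 2 lower without EV replicate 1. Their median log2 fold change was 0.03, against 0.04 over all tested genes. Ahr, the receptor, was at 64.4, 74.6 and 60.3 CPM in EV and 110.0, 137 and 133 CPM in Sox4 (log2 fold change 0.93 ± 0.13 (SE), adjusted p = 0.000238). Nqo1, a quinone reductase induced by AHR and by NRF2, was at 18, 15.9 and 17.4 CPM and 73.7, 85.7 and 51.7 CPM (log2 fold change 2.04 ± 0.22 (SE), adjusted p = 1.59e-05). In both genes every Sox4 library lay above every EV library. Arnt, the partner of AHR, was at 45, 47.5 and 47.3 CPM and 33.2, 35.6 and 36.3 CPM (log2 fold change -0.41 ± 0.05 (SE), adjusted p = 0.0068), lower in every Sox4 library, although scaling by library size alone gave 0.0587. The other tested genes of the list, Tiparp and Ugt1a6a, did not pass the threshold. Tiparp overlapped between the groups (log2 fold change 0.03 ± 0.57 (SE), adjusted p = 0.953). Ugt1a6a was at 5.09, 6.15 and 8.86 CPM in EV and 3.91, 4.90 and 4.46 CPM in Sox4, without overlap (log2 fold change -0.60 ± 0.25 (SE), adjusted p = 0.0673). Ahrr, a repressor of AHR that AHR induces, and Aldh3a1, another target, had no count in any library.

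In family 3, Cyp3a11 and Cyp3a13 were lower in Sox4 and Cyp3a59 was higher. Cyp3a11, the main hepatic drug-oxidizing Cyp3a enzyme of the mouse, was at 6503, 4488 and 3621 CPM in EV and at 1821, 2034 and 1309 CPM in Sox4, 2.83-fold lower by group means (log2 fold change -1.50 ± 0.31 (SE), adjusted p = 0.000728). The highest Sox4 library lay below the lowest EV library. Cyp3a13, an intestinal and hepatic Cyp3a enzyme, was at 190.0, 195 and 194 CPM in EV and at 45.1, 61.8 and 35.4 CPM in Sox4, 4.07-fold lower (log2 fold change -2.02 ± 0.23 (SE), adjusted p = 1.95e-05). The EV libraries of Cyp3a13 differed by no more than 1.02-fold, and none of its exon sequence was shared with another gene (windows of 50 bases). Both calls held without any 1 library and under each alternative tried.

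Cyp3a25, a steroid and drug hydroxylase, was at 751, 563 and 530.1 CPM in EV and 491, 576 and 317 CPM in Sox4, and the groups overlapped (log2 fold change -0.41 ± 0.30 (SE), adjusted p = 0.151). Its close copy Cyp3a59 was at 46.2, 35.7 and 23.6 CPM in EV and 74.8, 114 and 53.5 CPM in Sox4, 2.29-fold higher (log2 fold change 1.20 ± 0.42 (SE), adjusted p = 0.0201). Every Sox4 library lay above every EV library for Cyp3a59. The ratio of Cyp3a59 to Cyp3a25 counts was 0.0615, 0.0634 and 0.0445 in EV and 0.152, 0.197 and 0.169 in Sox4, so it was higher in each Sox4 library than in any EV library. The 2 genes share 26.8% (Cyp3a25) and 30.0% (Cyp3a59) of their 50-base exon windows with other genes, mostly with each other, so their counts are uncertain. The Cyp3a59 call was lost without EV replicate 2 (adjusted p = 0.0619), without Sox4 replicate 1 (0.0918) and with no filter on low counts (0.0562).

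The remaining 5 members of family 3 had few or no counts. Cyp3a16, the fetal form, and Cyp3a41a and Cyp3a41b, which are predominant in females, had none, and Cyp3a57 had 1 count in EV replicate 3. Cyp3a41a and Cyp3a41b share 98.6% and 93.5% of their 50-base exon windows with other genes, so that counts of 0 may mean only that no read could be assigned to 1 copy. Cyp3a44, also predominant in females, had 1, 16 and 6 counts in the EV libraries and 8, 6 and 19 counts in the Sox4 libraries, out of over 15090629 counts per library. The study's reporting summary states that only males were used, and the Y-linked gene Ddx3y was at 66.4 to 90.7 CPM across the 6 libraries, with Xist at 3 counts or fewer in each.

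Summed over family 3, levels ran from 4369 to 7489.9 CPM across EV libraries and from 1716 to 2786 CPM across Sox4 libraries, without overlap (means 5714 ± 1604 and 2311 ± 545, SD, n = 3). Cyp3a11 held 82.9 to 86.8% of the Cyp3a counts in EV and 73 to 76.3% in Sox4. The share of Cyp3a25 was 10 to 12.1% in EV and 18.5 to 20.7% in Sox4, and that of Cyp3a59 0.54 to 0.676% and 3.07 to 4.08%. Each of these 3 shares separated the groups without overlap.

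**Figure D3:**
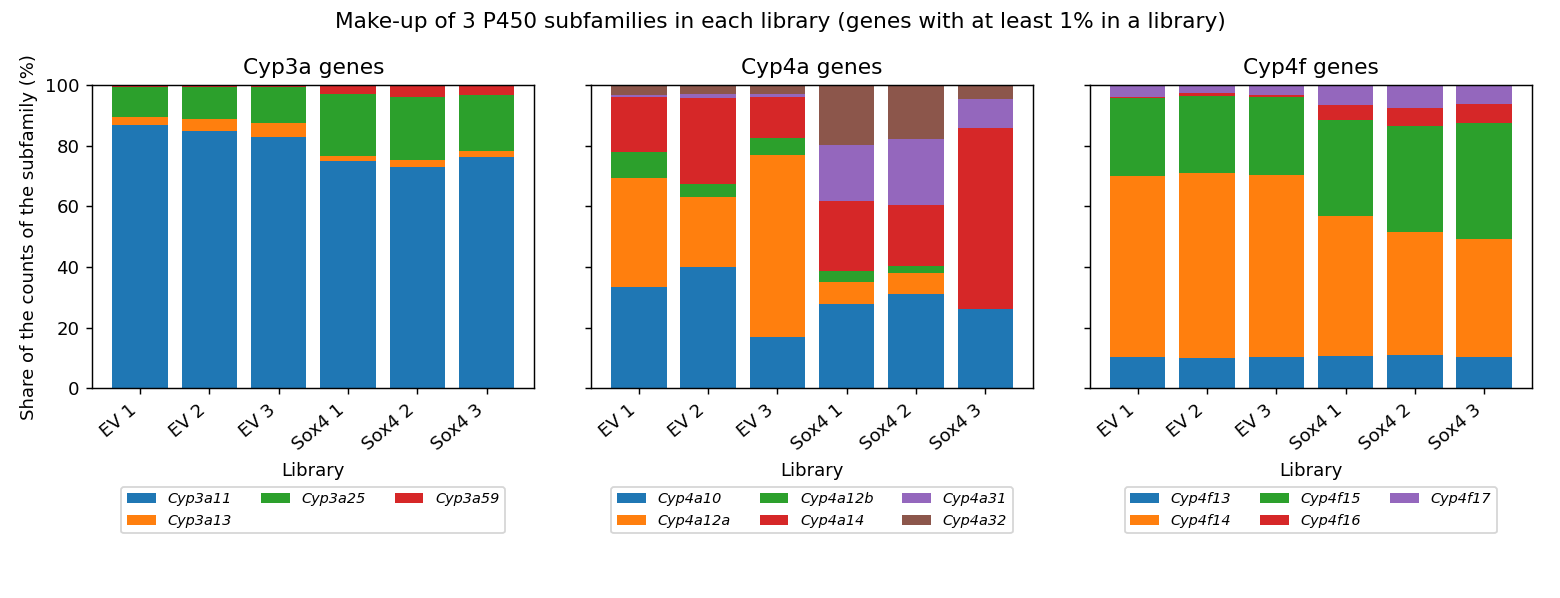
Stacked bars of the share (%) that each gene contributed to the counts of the Cyp3a, Cyp4a and Cyp4f subfamilies in each library, for genes with at least 1% in a library. Cyp3a11 stayed the largest Cyp3a gene in all 6 libraries, while Cyp4a14 took 59.6% of the Cyp4a counts in Sox4 replicate 3 alone and Cyp4f14 held 59.3 to 60.8% of the Cyp4f counts in EV and 38.9 to 46.2% in Sox4.

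All 7 genes of the PXR and CAR list were tested, with 3 lower (26.0% of all tested genes) and 3 higher (29.0%). Their median log2 fold change was 0.11. Nr1i2, which encodes PXR, was at 59.9, 87.4 and 72.1 CPM in EV and 80.7, 77.9 and 78.6 CPM in Sox4 (log2 fold change 0.11 ± 0.16 (SE), adjusted p = 0.512), and the groups overlapped. Nr1i3, which encodes CAR, was at 32.7, 30.9 and 24.2 CPM in EV and 7.37, 6.38 and 7.45 CPM in Sox4 (log2 fold change -2.05 ± 0.15 (SE), adjusted p = 7.64e-06), with every Sox4 library below every EV library. Rxra, their shared partner, was lower (log2 fold change -1.19 ± 0.15 (SE), adjusted p = 0.000133), as was the bile salt and conjugate exporter Abcc3 (log2 fold change -1.30 ± 0.18 (SE), adjusted p = 0.000131). The CAR target Cyp2b10 was higher, at 15.6, 10.5 and 4.58 CPM in EV and 48.3, 90.5 and 35.6 CPM in Sox4 (log2 fold change 2.51 ± 0.65 (SE), adjusted p = 0.00925), and its call was lost with no filter on low counts (adjusted p = 0.053). Cyp2c55, another CAR and PXR target, was at 8.09, 6.45 and 7.41 CPM and 208, 220.1 and 69.2 CPM (log2 fold change 4.50 ± 0.55 (SE), adjusted p = 0.000501), and the drug exporter Abcb1a was higher too (log2 fold change 2.29 ± 0.38 (SE), adjusted p = 0.000275). The 2 receptor genes that were called were lower, and the 4 called targets included 1 lower and 3 higher.

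In family 4, the 6 tested Cyp4a genes did not move together. Cyp4a12a and Cyp4a12b were far lower in Sox4, Cyp4a31 was higher, and Cyp4a10, Cyp4a14 and Cyp4a32 did not pass the threshold, with a median of -0.66 (log2). Cyp4a12a, a male-predominant arachidonic acid hydroxylase, was at 384, 185 and 611 CPM in EV and at 4.81, 13.4 and 0.507 CPM in Sox4, 63-fold lower by group means (log2 fold change -5.98 ± 1.41 (SE), adjusted p = 0.0102). Cyp4a12b was at 92.9, 34.2 and 53.9 CPM in EV and at 2.51, 5.11 and 0.253 CPM in Sox4, 23-fold lower (log2 fold change -4.52 ± 1.23 (SE), adjusted p = 0.00754). In both genes the groups lay far apart, and Sox4 replicate 3 was the lowest library, with 10 and 5 counts. The Sox4 libraries spread 26.4-fold and 20.2-fold from lowest to highest, so the size of the fall is imprecise. Both calls were lost without Sox4 replicate 1 (adjusted p = 0.0619 and 0.0532), with fold changes of -5.83 and -4.49. The 2 genes share 48.9% and 49.4% of their 50-base exon windows with each other, and their count ratio ran from 4.14 to 11.3 in EV and from 1.92 to 2.62 in Sox4.

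Cyp4a14 and Cyp4a10, the fatty acid hydroxylases most used as PPARA readouts, spread widely among the Sox4 libraries. Cyp4a14 was at 194, 225 and 141 CPM in EV and at 15.3, 40.6 and 569 CPM in Sox4 (log2 fold change 0.16 ± 1.57 (SE), adjusted p = 0.932). Sox4 replicates 1 and 2 lay below every EV library and Sox4 replicate 3 lay above every EV library, a 37.3-fold range within the group. Cyp4a10 was at 359, 318 and 173 CPM in EV and at 18.4, 63 and 250.1 CPM in Sox4 (log2 fold change -1.36 ± 1.13 (SE), adjusted p = 0.297), and only Sox4 replicate 3 reached the EV range. Without Sox4 replicate 3 both genes were called lower, Cyp4a14 by -2.73 (adjusted p = 0.0061) and Cyp4a10 by -2.80 (adjusted p = 0.0261) on the log2 scale. Cyp4a14 shared 0.235% of its exon windows with other genes. The ratio of Cyp4a14 to Cyp4a10 counts was 0.54, 0.708 and 0.811 in EV and 0.829, 0.645 and 2.28 in Sox4, with Sox4 replicate 3 apart from the other 5 libraries.

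Cyp4a31 was at 9.09, 9.34 and 7.55 CPM in EV and at 12.2, 43.7 and 92.6 CPM in Sox4, 5.72-fold higher by group means (log2 fold change 2.51 ± 0.85 (SE), adjusted p = 0.0386). Every Sox4 library lay above the EV libraries, by little in Sox4 replicate 1. The call was lost without any 1 EV library (adjusted p = 0.127, 0.0941 and 0.137), without Sox4 replicate 2 (0.0674) and with no filter on low counts (0.116), and without Sox4 replicate 3 the change was 1.69. Cyp4a32 was at 34.4, 24.3 and 31.4 CPM in EV and 13.2, 36 and 43.1 CPM in Sox4, with overlap (log2 fold change 0.03 ± 0.55 (SE), adjusted p = 0.953). The ratio of Cyp4a31 to Cyp4a32 counts was 0.264, 0.384 and 0.241 in EV and 0.928, 1.21 and 2.15 in Sox4, higher in each Sox4 library. The windows that Cyp4a10, Cyp4a31 and Cyp4a32 share with other genes were 29.8%, 20.6% and 43.8% of their exon sequence, so their counts are uncertain. Cyp4a29 and Cyp4a30b had no count in any library.

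Summed over the subfamily, Cyp4a was at 796 to 1073 CPM in EV and at 66.5, 202 and 956 CPM in Sox4 replicates 1, 2 and 3, so Sox4 replicate 3 fell within the EV range and the other two lay below it. Cyp4a12a made up 23.2 to 60% of the Cyp4a counts in EV, 7.24% and 6.63% in Sox4 replicates 1 and 2 and 0.053% in Sox4 replicate 3. Cyp4a14 made up 13.8 to 28.3% in EV, 23.0% and 20.1% in Sox4 replicates 1 and 2 and 59.6% in Sox4 replicate 3.

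The 14 genes of the PPARA list were all tested, with 5 higher (29.0% of all tested genes), 1 lower (26.0%) and 8 that did not pass the threshold. Their median log2 fold change was 0.41. The count of higher genes was 3 without EV replicate 2 or EV replicate 3, and the count of lower genes was 2 without Sox4 replicate 3. Ppara itself was at 86.1, 75.1 and 91.6 CPM in EV and 49.7, 79.1 and 90.2 CPM in Sox4 (log2 fold change -0.21 ± 0.27 (SE), adjusted p = 0.406), and its direction turned with library size scaling (0.26). Fgf21, a fasting hormone of the liver, was at 0.385, 0.152 and 0.436 CPM and 4.91, 14 and 30.6 CPM (log2 fold change 5.63 ± 0.81 (SE), adjusted p = 0.00222). Acot1, an acyl-CoA thioesterase, was at 26.1, 16.6 and 10.3 CPM and 107, 202 and 339 CPM (log2 fold change 3.61 ± 0.62 (SE), adjusted p = 0.00247), and in both genes all Sox4 libraries lay above all EV libraries. The lipid droplet protein Plin2 was also higher (log2 fold change 1.83 ± 0.41 (SE), adjusted p = 0.000964). Cpt1a, which carries fatty acids into mitochondria (log2 fold change 0.95 ± 0.44 (SE), adjusted p = 0.0376), and the carnitine carrier Slc25a20 (log2 fold change 0.51 ± 0.17 (SE), adjusted p = 0.0151) were higher with less certainty. The Cpt1a call was lost without any 1 library except Sox4 replicate 1 (adjusted p up to 0.126, without EV replicate 1) and its change was 0.57 without Sox4 replicate 3, and the Slc25a20 call was lost without EV replicate 2 (0.0699) or EV replicate 3 (0.0713).

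Fabp1, the fatty acid binding protein of hepatocytes, was the lower gene of this list, at 852, 865 and 794 CPM in EV and 170.1, 99.8 and 152 CPM in Sox4 (log2 fold change -2.57 ± 0.24 (SE), adjusted p = 7.31e-06), and the groups did not overlap. Ehhadh, a peroxisomal enzyme of fatty acid oxidation, was at 466, 352 and 345 CPM in EV and 135, 340.4 and 777 CPM in Sox4 (log2 fold change 0.11 ± 0.74 (SE), adjusted p = 0.896), below the EV range in Sox4 replicates 1 and 2 and above it in Sox4 replicate 3, as was Cyp4a14. Pdk4, a kinase that restrains glucose oxidation, was at 27, 16.2 and 9.51 CPM and 20.9, 84.2 and 112 CPM (log2 fold change 2.04 ± 0.86 (SE), adjusted p = 0.0628), so it missed the threshold. It was called higher with library size alone (adjusted p = 0.0303), the DESeq2 Wald test (0.0163), limma-voom (0.0368), a mean count of at least 50 (0.0459) and without Sox4 replicate 1 (0.0145), and not with DESeq2 size factors (0.0647), with no filter (0.165) or with any other 1 library left out.

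Among the 3 Sox4 libraries, replicate 3 had the highest value in 12 of the 14 PPARA genes (85.7%, against 33.2% of all tested genes), and replicate 1 had the lowest value in 13 of the 14. The share of all tested genes that were lowest in Sox4 replicate 1 was not computed. All 6 tested Kupffer cell markers and all 7 endothelial markers were also lowest in it. In other lists 2 of 8 hepatocyte markers, 1 of 7 PXR and CAR genes and 0 of 5 electron donor genes were lowest in it. Of the 6 tested Cyp4a genes, 4 were highest in Sox4 replicate 3, namely Cyp4a10, Cyp4a14, Cyp4a31 and Cyp4a32, and Cyp4a12a and Cyp4a12b were lowest there. All 6 tested members of families 1 and 3 and 5 of the 6 tested Cyp4f genes were lowest in Sox4 replicate 3, which was so for 34.9% of all tested genes. Sox4 counts were also lowest in this library (11816), and within the Sox4 group Kupffer cell and endothelial markers summed highest in it. Stellate cell markers summed lowest in it, but Reln made up most of that sum (126, 117 and 50.8 CPM in Sox4 replicates 1, 2 and 3). Lrat, Dcn, Des, Col1a1, Rgs5 and Colec11 were highest in Sox4 replicate 3, and Pdgfrb was highest in Sox4 replicate 2. Neutrophil and lymphoid markers summed to 1.6, 5.11 and 2.33 CPM in Sox4 replicates 1 to 3. The part of these measures in the spread was not tested.

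**Figure D4:**
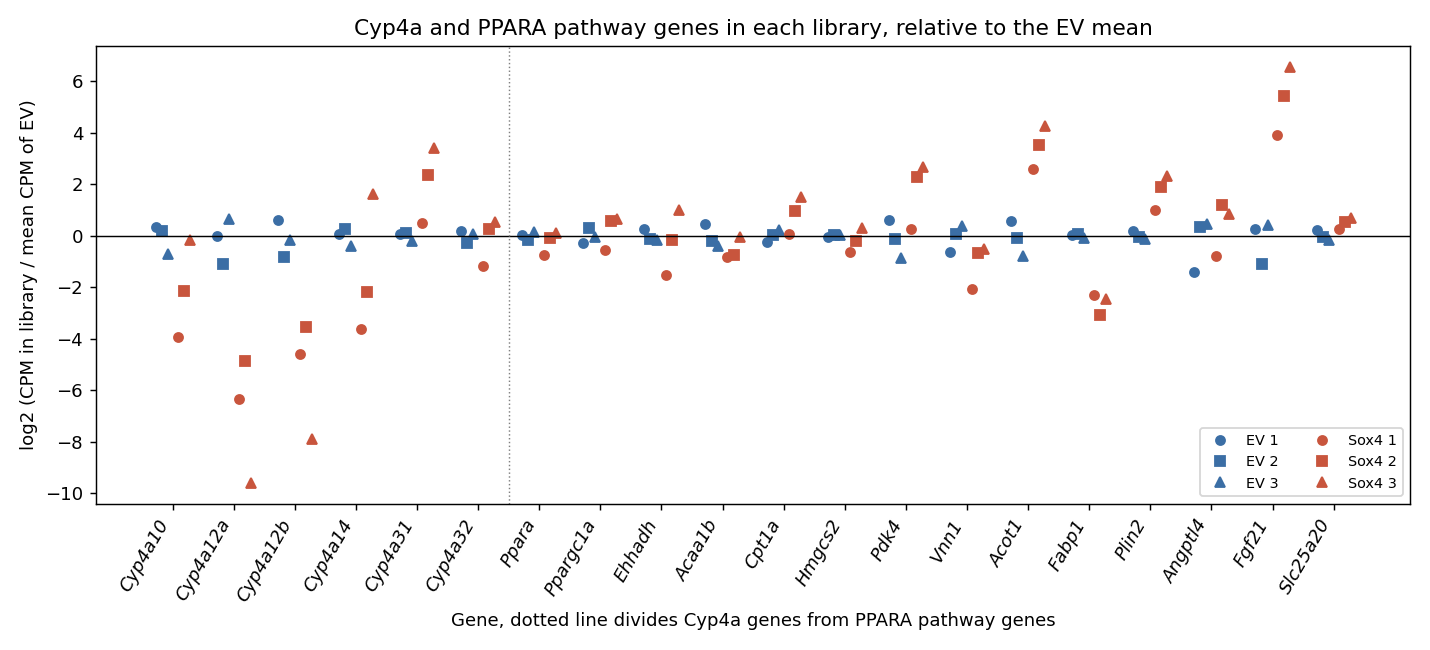
The log2 ratio of the CPM of each library to the EV mean for the 6 tested Cyp4a genes and the 14 PPARA pathway genes (EV libraries blue, Sox4 libraries red). Sox4 replicate 3 (red triangles) was the highest Sox4 library in 12 of the 14 PPARA genes and in 4 of the 6 Cyp4a genes, and the lowest for Cyp4a12a and Cyp4a12b.

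The Cyp4f genes, whose products hydroxylate leukotrienes and long-chain fatty acids, differed by no more than 1.53-fold within either group in all tested members but Cyp4f39 (2.65-fold within EV and 3.78-fold within Sox4). Of the 6 tested members, 3 were lower (26.0% of all tested genes) and 1 was higher (29.0%). Cyp4f14, a leukotriene hydroxylase and the most abundant Cyp4f gene in EV, was at 457, 469 and 408 CPM in EV and at 217, 155 and 143 CPM in Sox4, 2.59-fold lower (log2 fold change -1.37 ± 0.19 (SE), adjusted p = 0.000123). Cyp4f13 was at 80.8, 77.3 and 70.4 CPM in EV and at 50.2, 41.8 and 37.8 CPM in Sox4, 1.76-fold lower (log2 fold change -0.82 ± 0.13 (SE), adjusted p = 0.000511). In both genes the groups did not overlap, and both calls held without any 1 library and under each alternative tried. Cyp4f15 was at 199, 197 and 176 CPM in EV and at 149, 133 and 141 CPM in Sox4, 1.36-fold lower without overlap (log2 fold change -0.44 ± 0.07 (SE), adjusted p = 0.00871). With libraries scaled by their size alone, its change was 0.0308 (adjusted p = 0.825), under a median of 0.51 over all tested genes.

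Cyp4f16 was the Cyp4f gene that rose, from 3.93, 6.0 and 5.66 CPM in EV to 23.4, 23 and 22.6 CPM in Sox4, 4.42-fold higher (log2 fold change 2.14 ± 0.19 (SE), adjusted p = 9.53e-06). The Sox4 libraries differed by no more than 1.04-fold and all lay well above EV, and the call held without any 1 library and under each alternative tried. Cyp4f16 shared 17.4% of its exon windows with other genes, mostly with Cyp4f37, which itself had 1 count in Sox4 replicate 3 and none elsewhere. The ratio of Cyp4f16 to Cyp4f14 counts was 0.0086, 0.0128 and 0.0139 in EV and 0.108, 0.149 and 0.158 in Sox4. Within the Cyp4f counts, Cyp4f16 held 0.51 to 0.83% in EV and 4.99 to 6.14% in Sox4, and Cyp4f14 held 59.3 to 60.8% and 38.9 to 46.2%, while Cyp4f13 held 10 to 10.5% and 10.3 to 10.9%. The summed Cyp4f level was 741 ± 51.3 CPM (SD, n = 3) in EV and 406 ± 55.3 CPM in Sox4, without overlap.

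Cyp4f17 was at 28.4, 20.7 and 21 CPM in EV and 29.5, 27.8 and 22.8 CPM in Sox4, with overlap (log2 fold change 0.19 ± 0.18 (SE), adjusted p = 0.336). Cyp4f39, a hydroxylase of very long fatty acids in skin, was low at 1.54, 0.911 and 0.581 CPM and 0.451, 0.766 and 0.203 CPM (log2 fold change -1.08 ± 0.56 (SE), adjusted p = 0.141). Cyp4f18, the leukotriene hydroxylase of neutrophils, did not pass the filter, with 0, 0 and 3 counts in the EV libraries and 8, 12 and 8 in the Sox4 libraries. With a floor of 3 counts in place of each EV library, the ratio of its mean CPM in Sox4 to that floor was 2.10. This ratio takes no account of counting error or of the spread among libraries. The gene was called higher when no filter was applied. The 8 neutrophil and lymphoid markers together ran from 0.771 to 2.35 CPM (EV) and from 1.6 to 5.11 CPM (Sox4), with Ly6g at 0 in every library, and the exons of Cyp4f18 overlap Zfp961 on the opposite strand. Whether these counts came from another cell type or from Zfp961 was not tested. Cyp4f40 had no count in any library.

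Cyp4v3, a fatty acid hydroxylase and the counterpart of human CYP4V2, had 1 of the smallest errors among members. It was at 567, 621 and 663 CPM in EV and at 207, 189 and 218 CPM in Sox4, 3.01-fold lower (log2 fold change -1.59 ± 0.09 (SE), adjusted p = 9.83e-06). The groups lay far apart, and the call held without any 1 library and under each alternative tried. Its exons overlap the predicted gene Gm45753, with which it shares 7.02% of its windows. Cyp4b1, a lung enzyme, was at 0.616, 0.456 and 1.09 CPM in EV and 0.351, 0.919 and 0.912 CPM in Sox4 (log2 fold change 0.01 ± 0.49 (SE), adjusted p = 0.993), close to the floor of 0.150 to 0.231 CPM that 3 counts represent. Cyp4x1, a mainly neural member, had no count in any library. Over family 4 as a whole, summed levels ran from 2189 to 2411 CPM across EV libraries and from 744 to 1542 CPM across Sox4 libraries, without overlap.

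The 5 genes that supply P450 enzymes with electrons or bind them were all called, against 55.1% of all tested genes, with 4 lower (26.0% of all tested genes) and 1 higher (29.0%) and a median log2 fold change of -1.12. Por, the obligate reductase, was at 221, 195 and 245 CPM in EV and 375, 370.0 and 323 CPM in Sox4 (log2 fold change 0.69 ± 0.12 (SE), adjusted p = 0.00181). Cytochrome b5 (Cyb5a) was at 864, 855 and 863 CPM and 552, 483 and 385 CPM (log2 fold change -0.86 ± 0.15 (SE), adjusted p = 0.00115), and its reductase Cyb5r3 at 636, 551 and 509 CPM and 238, 189 and 144 CPM (log2 fold change -1.57 ± 0.23 (SE), adjusted p = 9.96e-05). Every Sox4 library lay above every EV library for Por and below for Cyb5a and Cyb5r3. The outer mitochondrial form Cyb5b (log2 fold change -1.29 ± 0.24 (SE), adjusted p = 0.000394) and Pgrmc1, a haem-binding partner of P450 enzymes (log2 fold change -1.12 ± 0.11 (SE), adjusted p = 0.000158), were lower too. These 5 calls held without any 1 library.

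Of the 10 genes of haem synthesis and degradation, all tested, 5 were lower (26.0% of all tested genes) and 1 was higher (29.0%). Their median log2 fold change was -0.34. The higher one was Hmox1, the haem oxygenase that degrades haem, at 5.32, 3.49 and 3.34 CPM in EV and 19.6, 20.1 and 20.8 CPM in Sox4 (log2 fold change 2.32 ± 0.21 (SE), adjusted p = 1.12e-05). Alas1, the rate-limiting enzyme of haem synthesis in liver, was at 63.1, 387 and 483 CPM in EV and 199, 475 and 418 CPM in Sox4 (log2 fold change 0.23 ± 1.01 (SE), adjusted p = 0.828), with EV replicate 1 far below the other libraries of its group. The count of lower genes in this list was 3 when EV replicate 1, EV replicate 2 or Sox4 replicate 2 was left out, and 3 with library size scaling.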

How the data were processed

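RNA-seq was available for 6 hepatocyte libraries (3 EV, 3 Sox4), grouped and numbered by their labels. The authors aligned reads to GRCm39 with STAR (2.7.10b in the submitters' processing notes), and the deposited values used here are their raw featureCounts 2.0.1 counts per gene. Annotation release, strand setting and the treatment of multi-mapping reads are not given in the sources used here. The authors' median-of-ratios (DESeq2) normalized table was not used.

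Testing used edgeR 4.0.16 in R 4.3.3 (filterByExpr, minimum count 10, minimum total 15; TMM; robust quasi-likelihood F test without covariates), and p-values were adjusted by Benjamini-Hochberg over 12691 genes at a threshold of 0.05. Adjusted p-values come from this fit unless another tool is named. The SE of a log2 fold change was computed from log2 CPM (prior count 2) as that of the difference between group means. The fold change beside it is the edgeR estimate, which can differ from that difference where libraries spread widely. For Cyp4a14, edgeR gave 0.16 and limma-voom, which works on log2 CPM, gave -1.37. No result of the DESeq2 Wald test was available for Cyp4a14. Libraries of a group differed beyond counting noise (chi-square per degree of freedom 17.6 to 62.7), so each counted as 1 replicate. The labels do not tie libraries to animals, and the study describes the 3 libraries of each group as 3 animals. The script was also run on simulated data, with far fewer changed genes than were called here and the same spread set for every gene. That run checks the code and not the calls. Alternatives were library size alone, DESeq2 1.42.0, limma 3.58.1 voom, 2 other filters, a replicate block and leaving out each library.

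Every member past the filter is named with its values. Pathway and marker genes come from lists set by hand, of which 1 gene is not reported here and is left out of its list's counts. Members and lists were chosen with earlier results of these data known. Exon lengths, copies (windows of 50 bases) and coding sequences were taken from GENCODE M21 and promoters from RefSeq, both on GRCm38 and not on the build used for counting.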

Additional observations from a re-analysis of the deposited data

How the results depend on the processing

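The 12 member calls were all kept with DESeq2 size factors, the DESeq2 Wald test and a mean count of at least 50, and 11 were kept with limma-voom and with library size alone. Without EV replicates 1, 2 and 3 in turn 11, 9 and 11 were kept, and without Sox4 replicates 1, 2 and 3 it was 8, 10 and 12. Scaling by library size alone raised the median change of all genes from 0.04 to 0.51 and the share of called genes that were higher from 52.7% to 79.9%. It turned Cyp3a25 (0.0545), Cyp4f15 (0.0308), Arnt (0.0587) and Ppara (0.26), and gave 6 higher members, 2 of them in family 1, 3 in family 4, no lower AHR gene, and 3 lower and 3 higher haem genes.

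The replicate block, fitted although same-numbered libraries share only a number (correlations of their deviations 0.275, -0.0935 and 0.129), called 7362 genes against 6990, kept 9 of 12 member calls, lost Cyp4a12a, Cyp4a12b and Cyp4a31, as well as Acot1 of the PPARA list (3.53, adjusted p = 0.0685), and left 1 higher member in family 4.

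Under the alternatives other than library size scaling, changes of sign were found only in genes without a call. Cyp4a14 was -1.37 with limma-voom and -1.64 with the block, Cyp4a32 -0.12 and -0.0864, Cyp4b1 -0.0529 and -0.0045, and Ehhadh -0.22 and -0.20. Leaving out 1 library gave ranges of -2.73 to 0.705 for Cyp4a14, -0.29 to 0.39 for Cyp4a32, -0.25 to 0.42 for Cyp4b1, -0.028 to 0.38 for Cyp1a2, -0.0281 to 0.25 for Nr1i2, -0.38 to 0.00289 for Ppara, -0.70 to 0.52 for Ehhadh and -0.27 to 0.68 for Alas1. The count of higher members then ran from 1 to 5, in family 1 from 0 to 2, in family 3 from 0 to 1 and in family 4 from 1 to 2. Lower AHR genes ran from 1 to 2, higher PPARA genes from 3 to 7, lower PPARA genes from 1 to 2 and lower haem genes from 3 to 5. Lower PPARA genes numbered 2 with the DESeq2 Wald test, with no filter and with the block. No filter left 0 higher members in family 3 and limma-voom 0 in family 1. The cause of these changes was not tested. Depth limits the genes near 3 counts.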
